A study of Mus musculus with 15 samples.

Results

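The genes described here encode the scaffold of perineuronal nets, and 9 of them were followed: the lecticans Acan, Bcan, Ncan and Vcan, the link proteins Hapln1 and Hapln4, tenascin R (Tnr), the hyaluronan synthase Has3 and the receptor phosphatase Ptprz1. They were picked by name for their known place in the nets, with earlier results of these data known. All 9 were found among the 46380 gene symbols that the 15 count tables share. The counts come from nuclear RNA of parvalbumin (Pv) interneurons, a fast-spiking inhibitory cell type, sorted as fluorescent nuclei from single frozen cortices of adult mice. Every mouse carried a Cre driven by the parvalbumin gene (PvCre) and a Cre-dependent nuclear fluorescent reporter (ROSA-tomato-lox), so the sorted population is whatever that driver labelled. The PTU_TH mice (n = 4, Thra+/+) ate propylthiouracil, an inhibitor of thyroid hormone synthesis, in food pellets for 2 weeks and received an intraperitoneal injection of thyroid hormones 24 h before dissection. The PTU mice (n = 3, Thra+/+) had the same 2 weeks of propylthiouracil without hormone. The Mut mice (n = 4, ThraAMI/+) carried 1 floxed Thra allele from which Cre releases the dominant negative receptor TRalpha1L400R, and the Ctrl mice (n = 4, Thra+/+) were their untreated littermates. The labels give neither a closer age nor the sex of the mice.

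A perineuronal net is a lattice of extracellular matrix that wraps the soma and proximal dendrites of mature fast-spiking interneurons. Hyaluronan, made at the cell surface by hyaluronan synthases, forms its backbone. Lecticans are chondroitin sulphate proteoglycans that hold hyaluronan at one end and tenascin R at the other, and link proteins lock the lectican to the hyaluronan. The nets form late in postnatal life and are known for restraining plasticity. Thyroid hormone acts through nuclear receptors, among them the product of Thra, which bind DNA and change transcription with the hormone.

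Lectican and link protein genes lie in pairs, and the GENCODE M21 annotation of GRCm38 shows 4 of them with no protein-coding gene between the partners. Acan spans chromosome 7, 79053483 to 79115099, on the plus strand, and ends 0.002 kb from the end of Hapln3, which runs towards it from the minus strand. Ncan (chromosome 8, 70093085 to 70120873, minus strand) and Hapln4 (70083457 to 70090862, plus strand) also meet tail to tail, 2.22 kb apart. Vcan (chromosome 13, 89655312 to 89742509, minus strand) and Hapln1 (89539796 to 89611652, plus strand) are 43.7 kb apart. Bcan (chromosome 3, 87987531 to 88000230, minus strand) lies 21.5 kb from Hapln2. The remaining members stand alone: Tnr on chromosome 1 (159523769 to 159931729, 408.0 kb long), Has3 on chromosome 8 (106870242 to 106884566) and Ptprz1 on chromosome 6 (22875502 to 23052916). Of the exonic bases, 3.44% of Tnr and 5.52% of Has3 are shared with another annotated gene (Gm38039 and Chtf8), and none of the other members' are. The libraries do not mark strand, so reads at the touching ends of Acan and Hapln3 could not be assigned by direction.

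The promoters of Acan and Ptprz1 are shown because these members had the lowest and the highest log2 fold change among the 3 with the smallest p in Mut against Ctrl. The third, Hapln1, is not shown, since its RefSeq start lies inside the GENCODE gene. The RefSeq promoter table matched 7 of the 9 members, all but Hapln4 and Has3. Each run is the 250 bases before the RefSeq start of the gene in GRCm38.p6, on the plus strand: chr7:79052976-79053225 for Acan and chr6:22875252-22875501 for Ptprz1. Capitals mark GGGCGG on either strand, the GC box.
Acan: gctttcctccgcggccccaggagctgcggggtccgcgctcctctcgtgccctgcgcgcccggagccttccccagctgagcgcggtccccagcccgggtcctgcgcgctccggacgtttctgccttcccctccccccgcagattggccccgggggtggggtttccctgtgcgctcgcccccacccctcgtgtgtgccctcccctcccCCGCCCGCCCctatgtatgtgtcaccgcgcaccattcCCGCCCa
Ptprz1: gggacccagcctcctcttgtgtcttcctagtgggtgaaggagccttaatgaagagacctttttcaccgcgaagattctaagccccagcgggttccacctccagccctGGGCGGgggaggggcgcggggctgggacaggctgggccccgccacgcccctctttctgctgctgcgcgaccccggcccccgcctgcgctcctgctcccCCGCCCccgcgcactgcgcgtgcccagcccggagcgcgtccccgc
The Acan window held 3 GC boxes and was 74.4% G or C, and the Ptprz1 window held 2 and was 71.6% G or C. GGGCGG was found on either strand in 5 of the 7 members' windows, against 32.7% of 32851 promoters of this length. The half-site AGGTCA, bound by thyroid hormone receptors among other nuclear receptors, was searched on both strands too. It occurred in 0 of the 7 members' windows in the table, against 14% of all promoters, and its direct repeat DR4, which contains it, occurred in 0 of 7 against 0.0152%. The 7 windows include that of Hapln1, which lies inside the GENCODE gene and held none of these motifs. They also include that of Ncan, which overlaps its GENCODE gene (window from 70120845, gene to 70120873).

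The libraries of Mut and Ctrl held 22333742 to 32571175 counts, and those of PTU_TH and PTU 12957838 to 19141683. Libraries of 1 group differed by far more than counting noise (chi-square per degree of freedom of 7.20 or more), and each was used as 1 mouse. Genes of parvalbumin neurons were high throughout: the 10 markers summed to between 6708 and 10326 CPM (a gene's count scaled to its library's total), led by Erbb4 and Kcnc2, and Pvalb itself ranged from 63.8 to 145 CPM. Markers of other cells were far lower. The 10 astrocyte markers, led by Slc1a2 and S100b, summed to 30.4 to 62.9 CPM, with Gfap listed at 0 in every library. The 8 markers of oligodendrocyte precursors, which make Bcan, Ncan, Vcan, Tnr and Ptprz1 as well, summed to 30.9 to 68.1 CPM, led by Lhfpl3 and Olig1, with C1ql1 and Gpr17 listed at 0. Excitatory markers (Cux2 and Slc17a7 highest) summed to 172 to 240 CPM, other interneuron markers (Npy and Reln highest) to 87.1 to 309 CPM, and microglia and endothelium markers (Csf1r and Cx3cr1 highest) to 2.72 to 21.1 CPM, with P2ry12 listed at 0 in every library. Most of the excitatory sum was Cux2, which averaged 132 CPM over all libraries, against 29.7 for Slc17a7, so this sum says little of the other excitatory markers. In a bulk library, fewer nuclei of a type and less RNA per nucleus cannot be told apart. Y-linked genes had counts in PTU_TH replicates 3 and 4, PTU replicates 6 and 7, Mut replicates 1, 2 and 3 and Ctrl replicate 2, and almost none elsewhere.

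Brevican and its neighbours in the nets differed widely in level. Per kb of exon, Bcan was the highest member at 223 ± 25.9 CPM per kb in PTU_TH, 198 ± 26.3 in PTU, 144 ± 4.24 in Mut and 171 ± 17.9 in Ctrl (SD, n = 4, 3, 4 and 4). In Ctrl its level per kb exceeded that of 99.7% of the 16354 genes tested in Mut against Ctrl that have a length. Hapln4 followed at 76.4 CPM per kb in Ctrl (above 98.4% of these genes), then Tnr at 25.9 (89.3%). Hapln1 at 8.97 ± 0.70 and Acan at 8.41 ± 0.71 CPM per kb did not differ beyond their spread in Ctrl. Below them in Ctrl came Ncan at 4.84, Has3 at 2.62 and Ptprz1 at 1.82 CPM per kb. Vcan, with 13 to 79 counts per library, stood at 0.125 CPM per kb in Ctrl, above only 2.37% of genes.

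**Figure D1:**
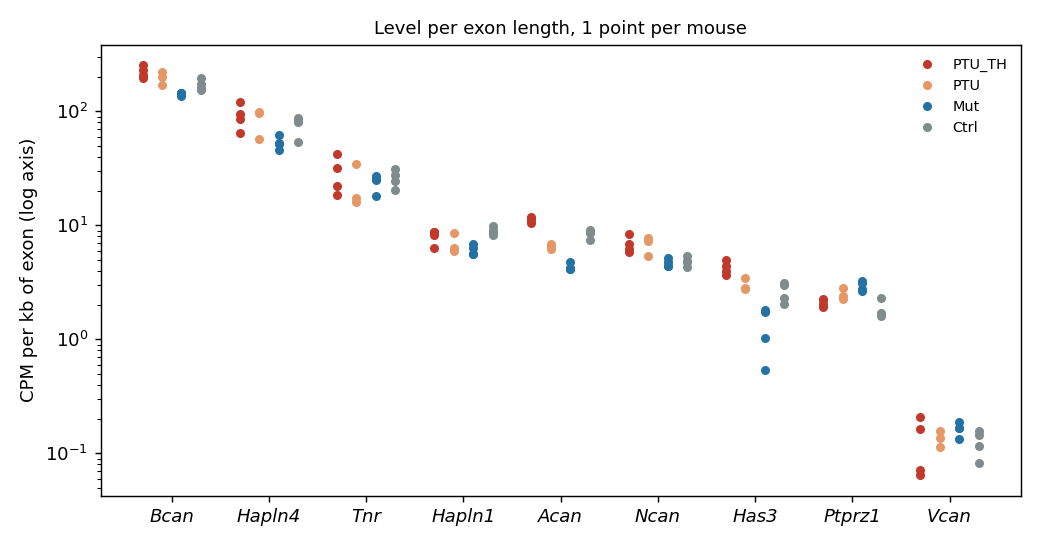
Level of each member as CPM per kb of annotated exon on a log axis, 1 point per mouse, groups in colour, genes ordered by their mean in Ctrl. Bcan stood at 171 CPM per kb in Ctrl and Vcan at 0.125, and the 4 groups of Acan form separate steps.

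Within the lectican family, brevican RNA made up nearly all of the summed level per kb. Bcan held 91.7% to 93.2% of it in PTU_TH, 93.3% to 93.8% in PTU, 93.8% to 94.4% in Mut and 91.9% to 93.6% in Ctrl. The share of Acan was 4.19% to 5.49% in PTU_TH and 2.86% to 3.62% in PTU, without overlap. It was 2.65% to 3.06% in Mut and 3.99% to 5.20% in Ctrl, also without overlap. Among the link proteins, Hapln4 exceeded Hapln1 per kb by 10.1 to 13.6 times in PTU_TH, 9.14 to 16.1 times in PTU, 7.32 to 9.34 times in Mut and 6.32 to 9.85 times in Ctrl, so the groups of each pair overlapped.

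Acan, which encodes aggrecan, the lectican that defines cortical nets, changed with both manipulations of hormone action. In Mut it measured 31.4, 35.5, 30.6 and 30.7 CPM, against 65.0, 63.5, 67.6 and 55.3 CPM in Ctrl. Every Mut library lay below every Ctrl library, and the Mut mean of 32.1 ± 2.33 CPM was 0.510 of the Ctrl mean of 62.8 ± 5.30 (SD, n = 4 each). In PTU_TH it measured 82.6, 87.4, 78.1 and 88.9 CPM, against 49.3, 51.5 and 46.1 CPM in PTU. Every injected mouse lay above every PTU mouse, and the means of 84.3 ± 4.91 (n = 4) and 49.0 ± 2.70 CPM (n = 3) stood at a ratio of 1.72. Across the 2 sets of tables, whose difference cannot be told apart from that of treatment, the order was PTU_TH, Ctrl, PTU and Mut from high to low, with no 2 groups overlapping.

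**Figure D2:**
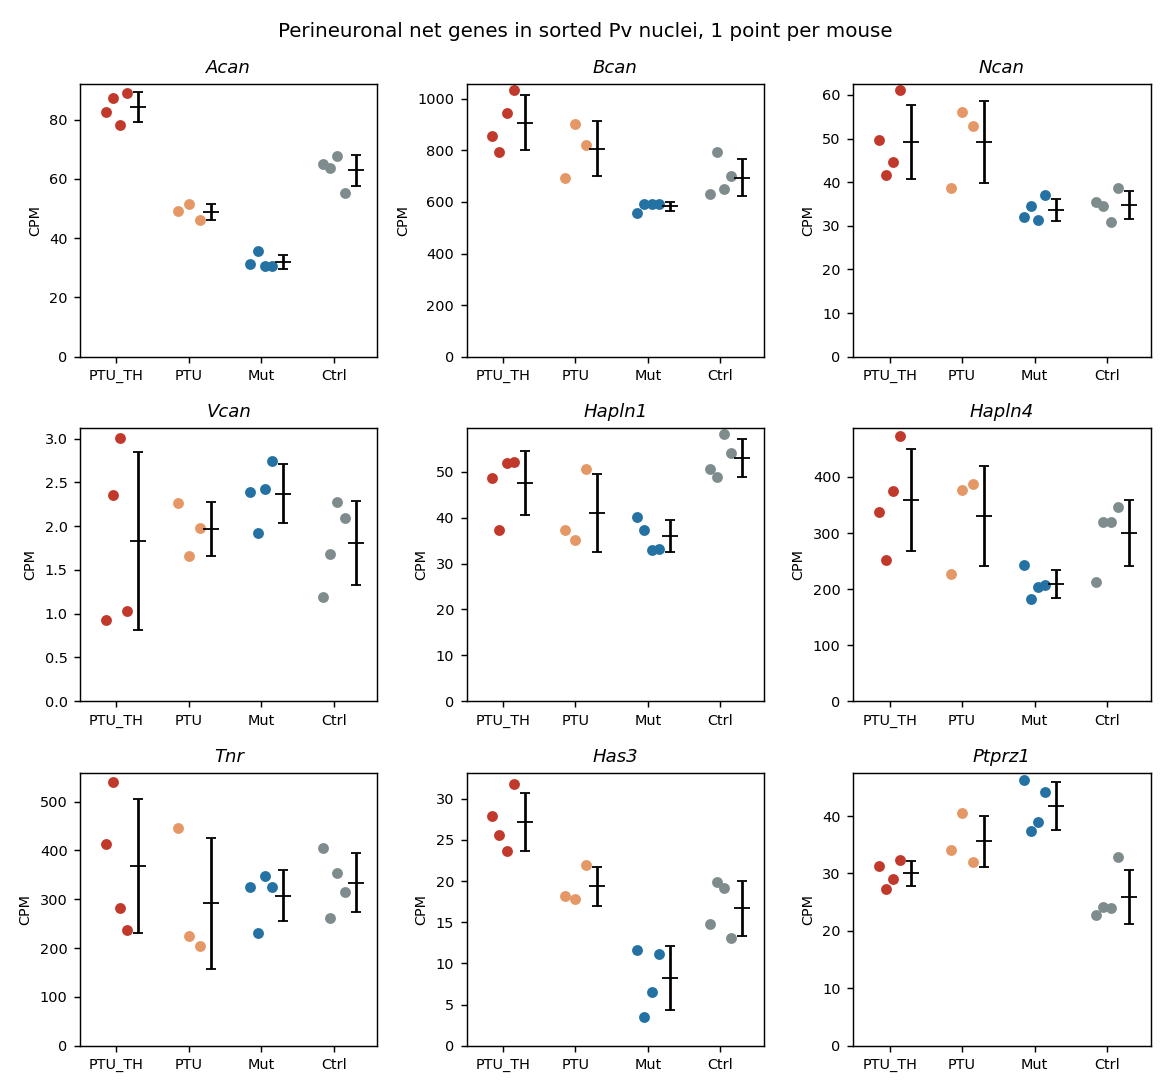
CPM of the 9 members in each mouse, with the group mean and SD as a bar to the right of the points (n = 4, 3, 4 and 4 for PTU_TH, PTU, Mut and Ctrl). Acan runs from 30.6 to 35.5 CPM in Mut and from 78.1 to 88.9 in PTU_TH, and Ptprz1 is highest in Mut.

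The comparison of Mut with Ctrl asked what the dominant negative receptor alters in these neurons. In edgeR (quasi-likelihood, Benjamini-Hochberg adjusted over 16949 genes) Acan fell by 0.99 on the log2 scale (−0.99 ± 0.12 SE, adjusted p = 0.00708). It was the 1 member of 9 that was called, where 0.348% of all genes were called, 0.224% lower and 0.124% higher. An unadjusted p under 0.05 was reached by 6 of the 9 members and by 8.74% of all genes. The call held when any 1 of the 8 libraries was left out (edgeR adjusted p from 0.00533 to 0.0454). Among mice without Y-linked counts it measured 30.7 CPM in the 1 Mut mouse, against 55.3 to 67.6 in the 3 Ctrl mice. Among those with them it measured 30.6 to 35.5 CPM in the 3 Mut mice, against 63.5 in the 1 Ctrl mouse. Other measures moved with the groups: Pvalb averaged 77.9 CPM in Mut and 119 in Ctrl without overlap (edgeR log2 fold change −0.63, adjusted p = 0.078), and the other interneuron markers summed to 180 to 309 CPM in Mut and 144 to 170 in Ctrl, also without overlap. Of the 10 Pv markers 7 had a negative log2 fold change (median −0.14, against 0.01 over all genes), 5 had an unadjusted edgeR p under 0.05 and none was called. Syt2 averaged 277 CPM in Mut and 439 in Ctrl, without overlap (−0.66). The summed Pv markers were nevertheless 8959 to 10326 CPM in Mut and 8144 to 9892 in Ctrl, since the most abundant had higher means in Mut: Erbb4 averaged 4385 CPM in Mut and 3388 in Ctrl, and Kcnc2 1805 in Mut and 1321 in Ctrl. The part of these differences in the members' values was not tested.

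The link proteins and Has3 also had lower means in Mut, without passing the adjusted threshold. Hapln1, whose product joins lecticans to hyaluronan, measured 40.2, 37.3, 33.0 and 33.3 CPM in Mut, against 50.6, 48.8, 58.2 and 54.0 CPM in Ctrl. The groups did not overlap, as for 3.33% of all genes in this direction, and the log2 fold change was −0.57 ± 0.12 (edgeR adjusted p = 0.0876). Hapln4, the link protein partnered with brevican in the brain, measured 242, 182, 204 and 207 CPM in Mut, against 213, 320, 320 and 346 CPM in Ctrl. Here Ctrl replicate 1 fell inside the Mut range, and the edgeR log2 fold change was −0.52 ± 0.16 (adjusted p = 0.271). Has3, a hyaluronan synthase, measured 11.6, 3.45, 6.57 and 11.1 CPM in Mut, against 14.7, 19.9, 19.2 and 13.0 CPM in Ctrl. The groups did not overlap, but Mut varied widely, and the log2 fold change of −1.02 had a 95% interval of −1.78 to −0.26 (edgeR adjusted p = 0.349). Without Mut replicate 2, the lowest, the log2 fold change of Has3 was −0.76. Has1, another hyaluronan synthase gene, stood above Has3 and did not fall. It averaged 31.4 CPM in Mut and 29.0 in Ctrl (0.11 ± 0.16, edgeR adjusted p = 0.936).

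Ptprz1 stood on the other side. It encodes a receptor tyrosine phosphatase that is itself a chondroitin sulphate proteoglycan, and its secreted form, phosphacan, binds tenascin R. It measured 46.3, 37.5, 39.0 and 44.2 CPM in Mut, against 22.7, 24.2, 23.9 and 32.8 CPM in Ctrl. The groups did not overlap, as for 2.57% of genes in this direction, and the log2 fold change was 0.68 ± 0.16 (edgeR adjusted p = 0.111). Hapln1 and Ptprz1 were called by DESeq2, by limma-voom and by 1 edgeR fit of all 4 groups (adjusted p for Hapln1 of 0.00057, 0.0305 and 0.0336, and for Ptprz1 of 0.00368, 0.0305 and 0.0229). Over all genes these fits called 403, 331 and 196, against 59 in the main test. Each of the 2 members was called in only these 3 of 9 settings and in 0 of 8 omissions. With the sex covariate the edgeR adjusted p was 0.309 for Hapln1 and 0.207 for Ptprz1. The precursor markers summed to 30.9 to 51.3 CPM in Mut and 34.0 to 54.4 in Ctrl. Most of this sum was Lhfpl3, which averaged 30.6 CPM in Mut and 31.9 in Ctrl, so the sum says little of the other precursor markers. The astrocyte markers summed to 43.0 to 62.0 CPM in Mut and 38.4 to 60.2 in Ctrl. Among the astrocyte markers Sox9 averaged 3.92 CPM in Mut and 1.16 in Ctrl, without overlap (1.75 ± 0.45, edgeR adjusted p = 0.153), and its part in the Ptprz1 difference was not tested. With the glial marker level as a covariate the edgeR log2 fold change of Ptprz1 was 0.67 (adjusted p = 0.210).

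The other members had smaller differences in Mut, none of them called. Bcan measured 558, 593, 593 and 591 CPM in Mut, against 630, 794, 652 and 701 CPM in Ctrl. The groups did not overlap, and the log2 fold change was −0.26, with a 95% interval of −0.51 to −0.01 (edgeR adjusted p = 0.557). Ncan averaged 33.7 ± 2.53 CPM in Mut and 34.8 ± 3.18 in Ctrl, and the 95% interval of its log2 fold change ran from −0.35 to 0.23. The log2 fold changes of the neighbours Hapln4 and Ncan on chromosome 8 were −0.52 and −0.06. Tnr averaged 307 ± 52.1 CPM in Mut and 334 ± 61.0 in Ctrl, with an interval of −0.54 to 0.28. Vcan averaged 2.37 ± 0.34 and 1.81 ± 0.48 CPM, with an interval of −0.32 to 1.10 at 43 to 79 and 29 to 57 counts per library, and a difference was not detectable at this depth.

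The injection asked which genes respond to hormone within 24 h in mice on propylthiouracil. Acan rose by 0.82 ± 0.12 (SE) on the log2 scale (edgeR adjusted p = 0.0422), the 1 call among the 9 members where 0.281% of 15288 genes were called, 0.255% higher and 0.0262% lower. An unadjusted p under 0.05 was reached by 2 of 9, against 7.37% of all genes. The call was lost whichever of the 7 libraries was left out (edgeR adjusted p from 0.0521 to 0.243), while the fold change stayed between 0.75 and 0.89. It was kept under the 8 settings that used every library, the sex covariate among them (adjusted p from 2.99e-05 to 0.0494 over edgeR, DESeq2 and limma). In mice with Y-linked counts Acan measured 78.1 and 88.9 CPM in PTU_TH, against 51.5 and 46.1 in PTU, and in those without, 82.6 and 87.4 in PTU_TH, against 49.3 in PTU. Pvalb averaged 133 CPM in PTU_TH and 99.2 in PTU, without overlap (edgeR log2 fold change 0.47, adjusted p = 0.277). Kcnc1 averaged 1409 CPM in PTU_TH and 1039 in PTU, also without overlap (0.48). Of the 10 Pv markers 7 had a positive log2 fold change (median 0.08, against −0.003 over all genes) and none was called. Kcnc2 (−0.17), Erbb4 (−0.13) and Gad1 (−0.03) were negative. Among markers of other cells, log2 fold changes were negative for 8 of 9 astrocyte (median −0.28) and 7 of 8 other interneuron markers (median −0.35). They were negative for 8 of 10 excitatory markers too (median −0.31, with Emx1 lower without overlap). For precursor markers 4 of 6 were negative (median −0.07), and for microglia and endothelium markers 4 of 7 (median −0.03). None of these markers was called. The part of these differences in the members' values was not tested.

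Has3 had the second smallest p of the members after the injection. It measured 27.9, 25.6, 23.6 and 31.8 CPM in PTU_TH, against 18.2, 17.8 and 22.0 CPM in PTU. The groups did not overlap, as for 3.43% of genes in this direction (no member was lower without overlap, as 3.82% of genes were), and the log2 fold change was 0.53 ± 0.14 (edgeR adjusted p = 0.288). Hapln1 measured 48.7, 37.4, 51.9 and 52.1 CPM in PTU_TH, against 37.3, 35.1 and 50.7 CPM in PTU, with overlap and an edgeR log2 fold change of 0.25 ± 0.14. Ptprz1 measured 31.4, 27.4, 29.1 and 32.3 CPM in PTU_TH, against 34.2, 40.6 and 32.1 CPM in PTU. Its groups overlapped narrowly, and the 95% interval of the log2 fold change ran from −0.49 to 0.07. The interval was −0.12 to 0.54 for Bcan, −0.26 to 0.35 for Ncan, −0.30 to 0.62 for Hapln4, −0.57 to 1.31 for Tnr and −1.11 to 1.00 for Vcan, and none of these members was called.

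**Figure D3:**
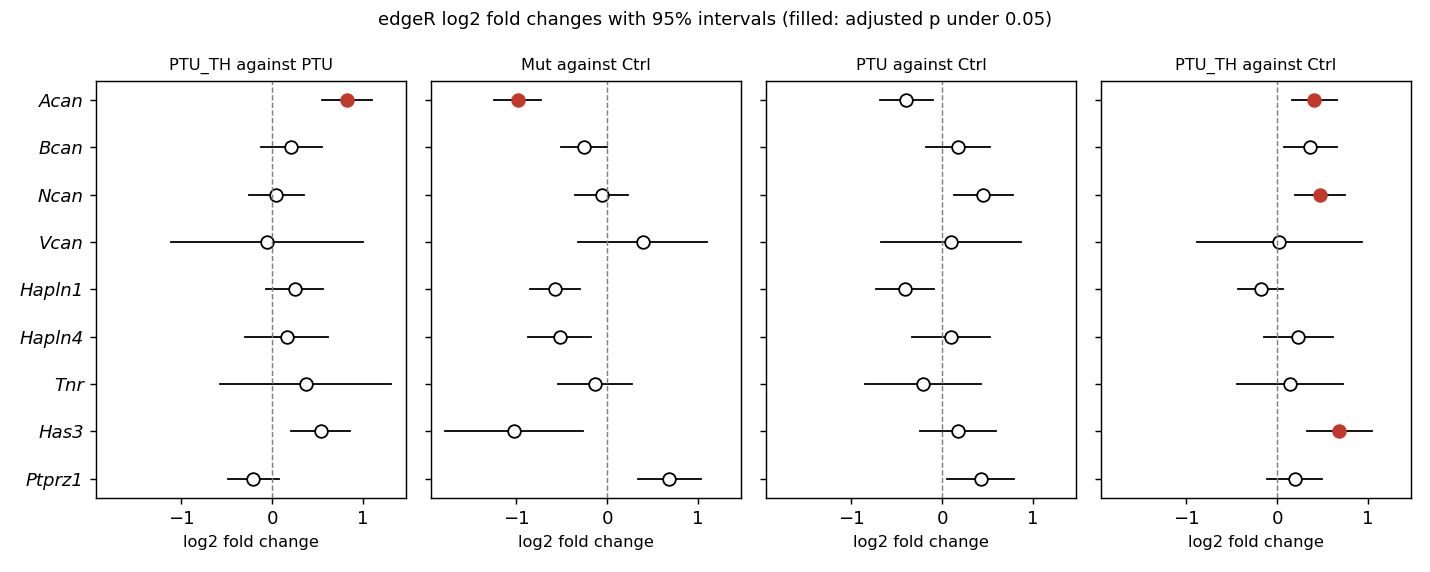
log2 fold change of each member in the 4 comparisons with its 95% interval from the edgeR fit; filled points have an adjusted p under 0.05. Acan is filled at 0.82 in PTU_TH against PTU and at −0.99 in Mut against Ctrl, and Ptprz1 lies at 0.68 in Mut against Ctrl.

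Comparisons with untreated mice crossed the 2 sets of count tables, which were made with different gene lists, so the set and the treatment cannot be told apart. They also share the Ctrl libraries with each other and with the Mut comparison. In PTU against Ctrl 17% of 16496 genes were called, 12.6% lower and 4.38% higher, and none of the 9 members was (4 had an unadjusted p under 0.05, as 28.8% of all genes had). Acan averaged 49.0 CPM in PTU and 62.8 in Ctrl, with no overlap, as for 16.9% of genes in this direction, and an edgeR log2 fold change of −0.40 ± 0.13 (adjusted p = 0.0663). Ncan averaged 49.2 ± 9.31 CPM in PTU and 34.8 ± 3.18 in Ctrl without overlap, as for 9.01% of genes in this direction (log2 fold change 0.45 ± 0.15, edgeR adjusted p = 0.0576). Hapln1 averaged 41.0 ± 8.41 and 52.9 ± 4.15 CPM (−0.41 ± 0.15, edgeR adjusted p = 0.0851). Ptprz1 averaged 35.6 ± 4.42 CPM in PTU and 25.9 ± 4.65 in Ctrl (0.42 ± 0.17, edgeR adjusted p = 0.117). Beside these values, 9 of 10 Pv markers had negative log2 fold changes (median −0.12, against −0.01 over all genes). Of the Pv markers 1 was lower without overlap and none was called. Positive log2 fold changes were found for 6 of 6 tested precursor markers (median 0.26) without a call. They were also found for 8 of 10 excitatory (median 0.31), 5 of 8 other interneuron (0.16), 4 of 9 astrocyte (−0.04) and 3 of 7 microglia and endothelium markers (−0.17). Mbp, a myelin gene, was called, at 69.4 CPM in PTU and 43.9 in Ctrl (0.62 ± 0.12, edgeR adjusted p = 0.00324). The excitatory marker Fezf2 was called higher and the interneuron marker Adarb2 lower in PTU, and the part of any of these in the members' values was not tested. Without PTU replicate 5 the edgeR test called Acan, Ncan and Tnr (4283 genes in all), and without PTU replicate 7 it called Hapln1 (2204 in all). The main test called 2804 genes, and each remaining omission called 0 members.

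In PTU_TH against Ctrl 3 of the 9 members were called higher, where 4.72% of 15814 genes were (17.8% in either direction). An unadjusted p under 0.05 was reached by 4 of 9, against 30% of all genes, and 4 of 9 were higher without overlap, against 6.53%. The called members were Has3 (log2 fold change 0.69 ± 0.17, edgeR adjusted p = 0.0108), Ncan (0.48 ± 0.13, adjusted p = 0.0187) and Acan (0.41 ± 0.11, adjusted p = 0.0252). Has3 averaged 27.2 ± 3.49 CPM in PTU_TH and 16.7 ± 3.34 in Ctrl. Ncan averaged 49.3 ± 8.51 CPM in PTU_TH and 49.2 in PTU, whereas Acan and Has3 were each higher in PTU_TH than in PTU without overlap. Has3 was called in all 8 omissions of 1 library, Ncan in 6 and Acan in 4. In the edgeR fit of all 4 groups Has3 was not called (adjusted p = 0.109) and Bcan was. Bcan was also called by DESeq2 and by limma-voom (adjusted p of 0.00241 and 0.0112), against 0.0869 in the edgeR fit of these groups alone. With the replicate number as a block Acan missed the threshold (edgeR adjusted p = 0.0582). Without PTU_TH replicate 1 only Has3 of the 9 was called.

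Tnr varied more between mice of 1 group than between groups, and it did so together with the share of counts in long genes. At 408.0 kb it is the longest member. In PTU_TH it measured 413 and 540 CPM in replicates 1 and 2 and 282 and 237 CPM in replicates 3 and 4, where 34.1%, 40.7%, 28.4% and 24.9% of counts fell in genes longer than 100 kb, Tnr included. In PTU it measured 447 CPM in replicate 5 and 224 and 205 CPM in replicates 6 and 7, with 39.6%, 25.7% and 25.8% of counts in such genes. In both groups the high libraries lacked Y-linked counts. In Mut it measured 325, 231, 348 and 325 CPM at 36.7%, 27.4%, 34.6% and 34.6%, and in Ctrl 405, 261, 354 and 314 CPM at 39.7%, 29.5%, 33.0% and 31.6%. Hapln4, the shortest member at 7.4 kb, ran the other way in the propylthiouracil mice, with 227 to 338 CPM in PTU_TH replicates 1 and 2 and PTU replicate 5, and 375 to 473 CPM in the other 4. Bcan, at 12.7 kb, divided likewise within each group. It measured 856, 795, 947 and 1035 CPM in PTU_TH replicates 1 to 4, and 692, 903 and 822 CPM in PTU replicates 5 to 7. Hapln4 did not run the other way in Mut, with 242 CPM at 36.7% and 182 CPM at 27.4%. In Ctrl it had 213 CPM at 39.7% and 320 CPM at 29.5%. Acan did not divide by these replicates within either propylthiouracil group. In PTU_TH it measured 82.6 and 87.4 CPM in replicates 1 and 2 and 78.1 and 88.9 CPM in replicates 3 and 4. In PTU it measured 49.3 CPM in replicate 5 and 51.5 and 46.1 CPM in replicates 6 and 7. What part the long-gene share has in these values was not tested.

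**Figure D4:**
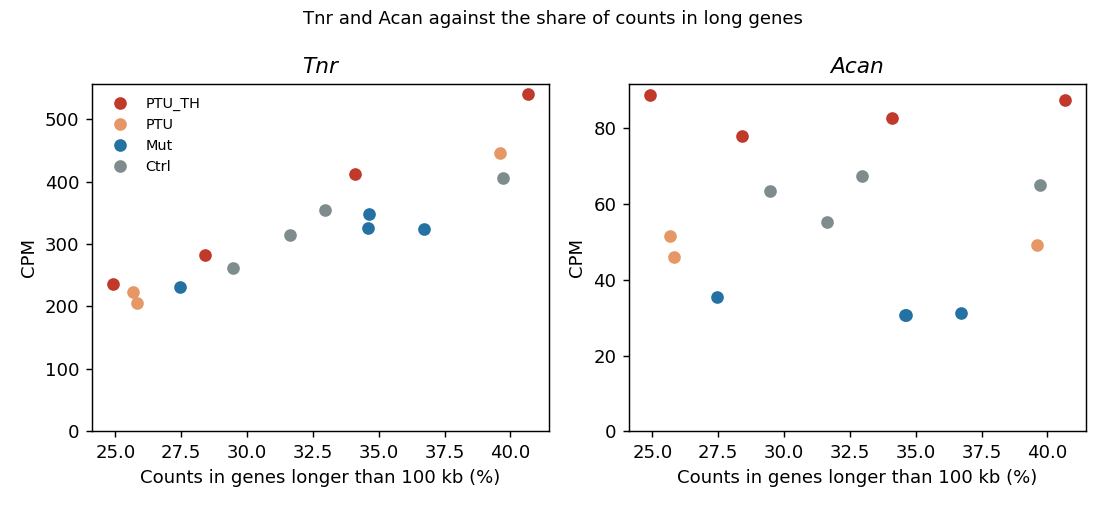
CPM of Tnr (left) and Acan (right) in each mouse against the percentage of its counts in genes longer than 100 kb. Tnr runs from 205 CPM at 25.8% to 540 CPM at 40.7%, while the Acan values form levels by group across the whole range.

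The genes whose pattern was most like that of Acan were sought among 9766 genes of at least 5 CPM in both sets of tables. Likeness was the root mean square difference in log2 CPM over the libraries, after centring each gene within its set, taking the larger of the value over the 7 PTU_TH and PTU libraries and that over the 8 Mut and Ctrl libraries. The closest were Epha4, an ephrin receptor (0.20), Dot1l, a histone methyltransferase (0.20), Slc36a1, an amino acid transporter (0.21), Crlf3 (0.21) and Arhgef37 (0.21), where the median gene differed by 0.56. Of the members the closest were Hapln1 (0.38) and Bcan (0.39), and Ptprz1 was among the least alike (0.87). Epha4 averaged 84.5, 61.3, 28.6 and 58.6 CPM in PTU_TH, PTU, Mut and Ctrl. Likeness to Acan over these libraries fixes the direction of such genes, so their log2 fold changes are a description only: −1.05 to −0.63 over the 5 in Mut against Ctrl and 0.42 to 0.70 in PTU_TH against PTU.

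The wider net machinery was followed through 4 lists of 77 genes in all. None of the genes tested was called in PTU_TH against PTU or in Mut against Ctrl. Across the sets, where set and treatment cannot be told apart, 6 were called in PTU against Ctrl: Cspg5, Xylt2, Chpf2, Timp2 and Ptprf higher and Cd44 lower in PTU. Another 6 calls fell in PTU_TH against Ctrl: Nptx1, Mmp17, Mmp24 and Ptprf higher and Cd44 and Sema3a lower in PTU_TH. In each of these comparisons the genes tested were 9 other net, 20 chondroitin sulphate, 17 protease and inhibitor, and 17 receptor and bound factor genes. Of all genes tested, 17% were called in PTU against Ctrl and 17.8% in PTU_TH against Ctrl. Cd44, a hyaluronan receptor, averaged 20.1 CPM in PTU_TH, 22.4 in PTU and 54.3 in Ctrl. Ptprf, a receptor phosphatase, averaged 14.4 CPM in PTU_TH, 20.7 in PTU and 9.26 in Ctrl. Other net and hyaluronan genes (9 of 11 tested) had a median log2 fold change of −0.07 after the injection and 0.12 in Mut, where all genes tested had −0.003 and 0.01. In this list Hapln3, the link protein gene that abuts Acan, averaged 5.65 ± 2.41 CPM in Mut and 2.82 ± 0.65 in Ctrl, against the direction of its neighbour (log2 fold change 0.99 ± 0.35, edgeR adjusted p = 0.372). Nptx2, a secreted pentraxin held in the nets, averaged 4.42 ± 1.31 CPM in Mut and 2.14 ± 1.08 in Ctrl (edgeR adjusted p = 0.433). After the injection neither differed beyond its spread, with Hapln3 at 4.17 ± 1.33 CPM in PTU_TH and 4.47 ± 0.62 in PTU, and Nptx2 at 3.09 ± 0.71 and 3.59 ± 1.39.

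Genes of chondroitin sulphate synthesis, which build the side chains of the lecticans, had a median of −0.12 over 20 tested after the injection and of 0.05 over 21 in Mut. Slc26a2, the sulphate transporter, had 11.7 ± 3.86 CPM in Mut and 17.3 ± 3.25 in Ctrl (−0.59 ± 0.24), and 18.1 ± 2.63 in PTU_TH and 13.7 ± 1.46 in PTU (0.44 ± 0.14), with edgeR adjusted p of 0.501 and 0.404. Slc35d1, which carries nucleotide sugars into the endoplasmic reticulum, had 25.3 ± 1.19 CPM in Mut and 18.5 ± 2.88 in Ctrl, without overlap (edgeR adjusted p = 0.356).

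Proteases and inhibitors had medians of −0.03 after the injection and 0.008 in Mut, over 18 tested. Mmp15, a membrane-type metalloproteinase, had 5.33 ± 1.94 CPM in Mut and 9.97 ± 2.11 in Ctrl (edgeR adjusted p = 0.324), and 13.0 ± 3.71 in PTU_TH and 8.77 ± 1.67 in PTU (adjusted p = 0.501). Adamts5, an aggrecanase, had 1.10 ± 0.72 CPM in Mut and 3.04 ± 1.53 in Ctrl, and 4.99 ± 0.37 in PTU_TH and 3.61 ± 0.80 in PTU, with no overlap in either comparison (edgeR adjusted p of 0.412 and 0.699).

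Receptors and bound factors had medians of 0.02 in Mut and 0.005 after the injection, over 17 tested. Ptprs, a phosphatase receptor for chondroitin sulphate, had 754 ± 57.7 CPM in Mut and 1003 ± 73.4 in Ctrl, without overlap (−0.42 ± 0.13, edgeR adjusted p = 0.289). Plxna1, a coreceptor of semaphorins, had 68.1 ± 9.59 CPM in PTU_TH and 52.1 ± 8.17 in PTU (0.43 ± 0.11, edgeR adjusted p = 0.257). The 9 members themselves had a median of −0.26 in Mut, with 7 of 9 negative, and of 0.21 after the injection, with 7 of 9 positive. Over all genes tested the negative share was 8083 of 16949 and the positive share 7561 of 15288. Since the members were chosen with earlier results of these data known, this contrast is a description only.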

How the data were processed

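Per the labels' protocols, RNA of sorted nuclei was amplified with SMART-Seq v4, made into Nextera XT libraries and read as single-end reads. The authors deposited raw counts per gene symbol, 1 table per mouse, and the submitters' processing notes name Bowtie2 2.5.3, HTSeq and the build mm10 (GRCm38). How HTSeq was set, and with which annotation, is not given in the sources used here. There are 55341 symbols for PTU_TH and PTU, and 48321 symbols for Mut and Ctrl. No column came from outside the series.

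Each comparison used only its own libraries in edgeR 4.0.16 (R 4.3.3), with TMM scaling, filterByExpr at a minimum count of 10 and robust quasi-likelihood fits, and an adjusted p under 0.05 was a call. Comparisons across the sets used shared symbols. CPM is the count scaled to the library total, and level per kb divides by the union of GENCODE M21 exons. No molecular identifiers were used, so counting error understates technical error. Titles number separate mice. Same-numbered Mut and Ctrl libraries correlated at −0.02 to 0.20 in their deviations, and PTU_TH and Ctrl at −0.21 to 0.09, so numbers were not taken as pairs. Alternatives were RLE scaling, DESeq2 1.42.0, limma 3.58.1 (voom with quality weights), 2 other filters, a fit of all groups, a sex covariate (Y-linked genes above 50 CPM), a glial marker covariate, the replicate number as a block, and each library left out in turn. The fits were tested on simulated data. Members and lists were chosen with earlier results of these data known. From each matrix list, genes called in PTU_TH against PTU or in Mut against Ctrl, or else the 2 with the smallest p there, are described. From each marker list the 2 highest and any called gene are named. Genes called across the sets are listed too, Has1 is given beside Has3, and some further markers are named beside the members' values. The summed level of the oligodendrocyte list is not reported here.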

Additional observations from a re-analysis of the deposited data

Results flagged for a closer look

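Over 27 sets of 4 libraries (9 members in 3 groups), 3 held a library that stood apart by Dixon's criterion, where chance gives about 1 in 20. Acan in Mut replicate 2, at 35.5 CPM, lay above the other Mut libraries, and Mut replicate 2 also had the lowest share of counts in genes longer than 100 kb of its group (27.4%). Bcan in Mut replicate 1, at 558 CPM, lay below the others, which held 591 to 593 CPM. Ptprz1 in Ctrl replicate 4, at 32.8 CPM, lay above the other Ctrl libraries.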

How the results depend on the processing

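Acan in Mut against Ctrl was called under all 9 other settings and all 8 omissions. In PTU_TH against PTU it was called under all 8 settings, while each omission left 0 members called; fewer libraries entered those fits. In Mut against Ctrl the count was 3 with DESeq2, limma-voom and 1 fit of all groups, which added Hapln1 and Ptprz1. In PTU against Ctrl it was 1 with DESeq2 (Ncan), 4 with limma-voom, 3 with the fit of all groups and 0 to 3 over omissions. Over all genes these fits called 3658, 5653, 3150 and 2061 to 4283, against 2804 in the main test. In PTU_TH against Ctrl the member count was 3 in the main test and 1 to 3 over omissions. It was 4 with DESeq2 and with limma-voom, which added Bcan. Over all genes the main test called 2814 there, DESeq2 4198, limma-voom 3867 and the omissions 2380 to 3270. Replicate numbers were not taken as pairs, though weak correlations over so few mice cannot exclude pairing. With the replicate block, 1 member was called in Mut against Ctrl (82 genes in all, against 59) and 2 in PTU_TH against Ctrl (2424 genes in all, against 2814). Over all genes, PTU_TH against PTU gave 43 calls in the main test, 203 with DESeq2, 171 with limma-voom and 335 with the sex covariate, and Mut against Ctrl gave 59, 403, 331 and 31.

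Log2 fold changes that changed sign were of members that the main test did not call in that comparison, and the cause was not tested. In PTU_TH against PTU, Ncan was −0.061 with limma-voom and −0.051 to 0.13 over omissions, Tnr −0.078 with the glial covariate, Vcan −0.34 to 0.16 and Hapln4 −0.0036 to 0.26 over omissions. In Mut against Ctrl, Ncan was 0.0084 with the sex covariate, and Tnr 0.0066 with limma-voom, 0.046 with the sex covariate and −0.24 to 0.0050 over omissions. In PTU against Ctrl, Vcan was −0.14 with limma-voom and −0.076 to 0.22 over omissions, Hapln4 −0.071 and −0.011 with the sex and glial covariates and −0.021 to 0.27 over omissions, Tnr 0.034 and 0.15 with these covariates and −0.74 to 0.0088 over omissions, and Has3 −0.062 with the glial covariate. In PTU_TH against Ctrl, Vcan was −0.29 with limma-voom, −0.10 with the replicate block and −0.27 to 0.24 over omissions, and Tnr −0.16 to 0.33 over omissions. Depth limits Vcan most, at 13 to 79 counts per library.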
